A study of Mus musculus with 8 samples.

Results

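The 4 wild-type cultures of this series were described as 1 condition, the bone marrow culture after 5 days with the cytokine IL-7. They are 4 of 8 samples, and they were chosen by genotype alone, as the 2 cultures labelled Bob1+/+ and the 2 labelled C57BL/6Ncrl. Of 21082 genes with a symbol on the array, 13654 (64.8%) had a probe well above background on all 4 arrays, a flag that the scanning software sets per spot, and 5598 (26.6%) had none on any. The remaining 1830 genes were measured on some of the arrays only.

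The marrow came from femurs of 10-week-old mice, all of strain C57BL/6 per the labels. It was grown in IL-7 and 10% fetal calf serum, in Iscove's medium. Each of the 4 groups, Bob1 wild-type, Bob1 knockout (Bob1-/-), BL6 wild-type and miR-146a knockout (miR-146a-/-), had 2 cultures, a female one (replicate A) and a male one (replicate B). Bob1 is the B cell coactivator encoded by Pou2af1, and miR-146a is a microRNA. The duplicates are called biological in the labels, but the number of mice behind each is not given, so p-values measure only the spread between these cultures. No sorting step is described, so an array reports all cells of a culture. Replicate letter and sex cannot be told apart. The arrays sat on 2 slides, and of the wild-type arrays only BL6 wild-type B was on the second.

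IL-7 is a growth and survival signal for early B cells, and in marrow cultures it lets pro-B and pre-B cells multiply. A pro-B cell rearranges its immunoglobulin heavy chain gene with the Rag enzymes, and the heavy chain then pairs with a surrogate light chain made from the Vpreb and Igll1 proteins. This pre-B cell receptor signals through Cd79a and Cd79b and drives large pre-B cells through division, after which small pre-B cells rearrange a light chain and become immature B cells. Flushed marrow also carries neutrophils, monocytes, megakaryocytes, red cell precursors, T and NK cells, and stroma.

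Values are levels on a log2 scale, the log2 signal of a probe minus the log2 of the 75th percentile of its array, so that 0 is the 75th percentile itself, and 1 unit is a doubling of signal. A gene is represented by its brightest probe. A level is the brightness of a probe and not a transcript abundance. In 5917 genes with several probes well above background on all 4 arrays, the brightest and dimmest probe of a gene differed by a median of 2.73 (quartiles 1.35 and 4.39). The order of genes below is therefore an order of probe signals, and only the same gene is compared between arrays.

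The 4 arrays were alike in depth. Their 75th percentiles lay between 626.74 and 782.46 signal units, between 63.3% and 66.1% of probes were well above background, and no spot was saturated. The lowest level still well above background lay between -6.17 and -5.84. Across 17276 tested features, which are not independent replicates, the wild-type arrays correlated with r between 0.988 and 0.994. Levels of the 13654 genes ran from -5.87 to 9.93, with quartiles of -2.14, 0.34 and 2.28, and the SD over the 4 arrays had a median of 0.15. Xist and Y-linked genes matched the labelled sex on all 8 arrays.

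Probes of 3 cell-identity genes are shown because the culture is read through them, one for a pre-B cell, one for neutrophils and one for monocytes and neutrophils. They are 60 bases long, lie on mm9 where given, and each has at least 1 reading frame without a stop codon.
Vpreb3: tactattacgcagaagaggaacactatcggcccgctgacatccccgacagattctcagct
S100a8: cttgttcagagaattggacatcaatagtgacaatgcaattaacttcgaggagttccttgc
Lyz2: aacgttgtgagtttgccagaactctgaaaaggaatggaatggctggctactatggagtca
The Vpreb3 probe lies at chr10:75412043-75412102 on the plus strand, and its level was 6.74 ± 0.06 (SD, n = 4). The S100a8 probe lies at chr3:90473778-90473837 on the plus strand and read 8.22 ± 0.28 (SD, n = 4). The Lyz2 probe lies at chr10:116719175-116719234 on the minus strand and read 5.00 ± 0.28 (SD, n = 4). Vpreb3 and Lyz2 each had a second, brighter probe, and that one gives the level used below.

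Genes of B cell precursors and of granulocytes stood side by side among the brightest probes of the culture. The 6 genes given as markers, Vpreb1, Vpreb3, Ighm, Cd79b, S100a9 and Lyz2, were all well above background on all 4 arrays and all among the 100 brightest genes. These 6 were named with these data known, so their rank is a description.

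Ighm, the constant region of the IgM heavy chain, read 8.81 and 8.77 in the Bob1 wild-type cultures A and B and 8.79 and 8.93 in the BL6 ones. That is a mean of 8.83 ± 0.07 (SD, n = 4) and rank 25 of 13654. The Ighm probe lies at chr12 in the constant region and does not tell a rearranged heavy chain from a germline transcript.

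Vpreb3, a chaperone-like partner of the early heavy chain, read 8.17, 8.21, 8.20 and 8.39 in the same order, with a mean of 8.24 ± 0.10 (SD, n = 4) and rank 47. Vpreb1, a part of the surrogate light chain, read 7.72 and 8.13 in Bob1 wild-type and 7.93 and 8.32 in BL6 wild-type, with a mean of 8.02 ± 0.26 (SD, n = 4) and rank 64. Both male cultures lay above both female ones for Vpreb1. Cd79b, a signalling chain below immunoglobulin on the cell surface, read 7.72, 7.76, 7.68 and 7.81, with a mean of 7.74 ± 0.06 (SD, n = 4) and rank 82.

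S100a9, which forms the granulocyte protein calprotectin with S100a8, read 9.20, 8.99, 9.26 and 9.19, with a mean of 9.16 ± 0.12 (SD, n = 4) and rank 11. Lyz2, lysozyme of monocytes, macrophages and neutrophils, read 8.55, 8.37, 8.54 and 8.45, with a mean of 8.48 ± 0.09 (SD, n = 4) and rank 38. For Lyz2 both female cultures lay above both male ones, while for S100a9 the nearest female and male cultures read 9.20 and 9.19. Both female cultures were higher for 2 of the 6 markers and both male ones for 3. These counts were 5 and 1 after quantile normalization and 1 and 2 with normexp background correction. In the authors' deposited value table they were 3 and 1, so the order of the sexes for the markers rested on the scaling. S100a8 itself had rank 48. In such whole-culture RNA, fewer cells of a type and less RNA per cell cannot be told apart.

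**Figure D1:**
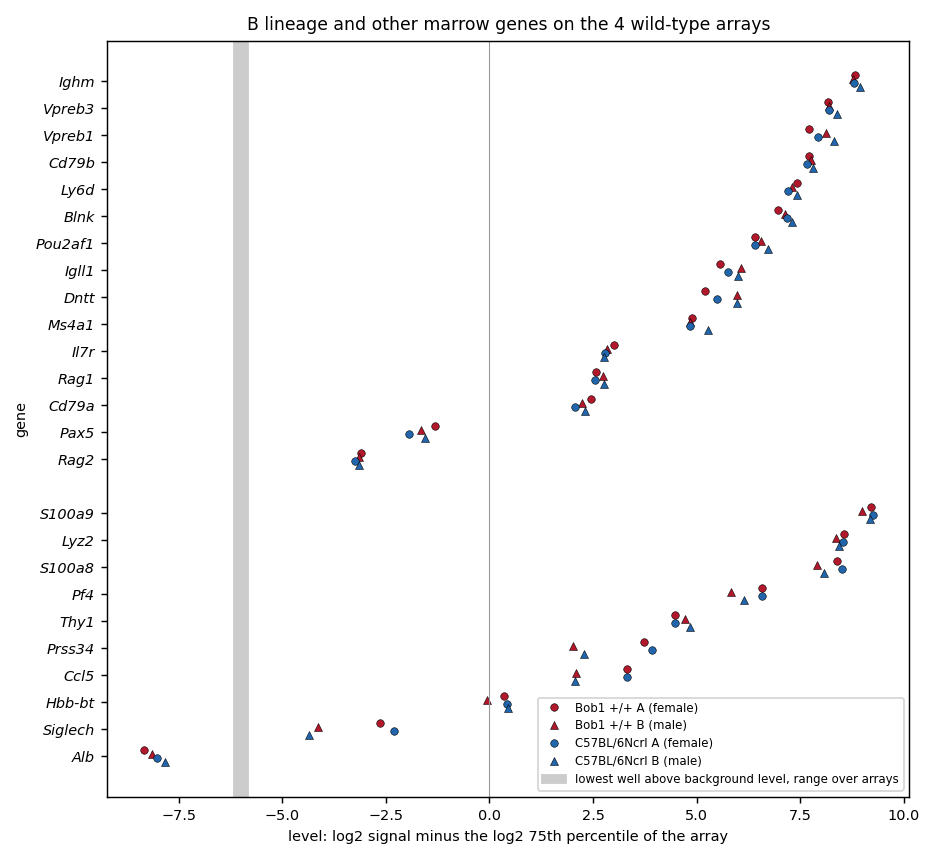
Level of 15 B lineage genes (top) and 10 genes of other cells (bottom) on each of the 4 wild-type arrays, as log2 signal minus the log2 75th percentile of the array. Red is Bob1 wild-type, blue BL6 wild-type, circles are female and triangles male cultures, and the grey band spans the lowest well above background level of the 4 arrays. Ighm and S100a9 lie near 9, and Alb lies below the band.

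Beyond these, the brightest probes were mostly those of ribosomal protein and histone genes. Of the 25 brightest genes, 13 encode ribosomal proteins and 6 encode histones. The other 6 were Rn18s at 9.93, Ptprz1 at 9.596, Lars2 at 9.28, S100a9, Rack1 at 8.85 and Ighm. Of the 100 brightest, 56 encode ribosomal proteins and 11 histones. The 25th gene, Ighm, and the next one, Rps29, read 8.828 and 8.824, so the edge of that group is not a gap. The ribosomal protein genes among the 25 included Rps23 at 9.31, Rps18 at 9.26, Fau at 9.17, Rplp0 at 9.17, Rplp1 at 9.13 and Rps20 at 9.10, and, dimmer, Rpl41 at 9.02, Rps2 at 9.0, Rpl7a at 8.97, Rpl37a at 8.93, Rps28 at 8.91 and Rps16 at 8.85.

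Some of these names rest on a single probe among several. Ptprz1, a receptor phosphatase best known from the nervous system, had 4 probes, of which the bright one read 9.47, 9.40, 9.66 and 9.85. Its other probes read means of -5.50, -7.90 and -8.38, and none of the 3 was well above background on all 4 arrays. The file places the bright probe on another chromosome than RefSeq places the gene, which held for 45 of 13279 genes (0.339%) and for 1 of 24 of the brightest with both positions known. H2aj had a second probe at 0.73 beside its bright one at 9.32, so its place among the brightest also depends on the probe. The same held for Rps20, with a second probe at -0.15. Rps2, Rps18 and Rps28 also had a dim probe (-8.18, -1.43 and 1.15), but each had a further bright one (7.47, 8.10 and 8.81).

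**Figure D2:**
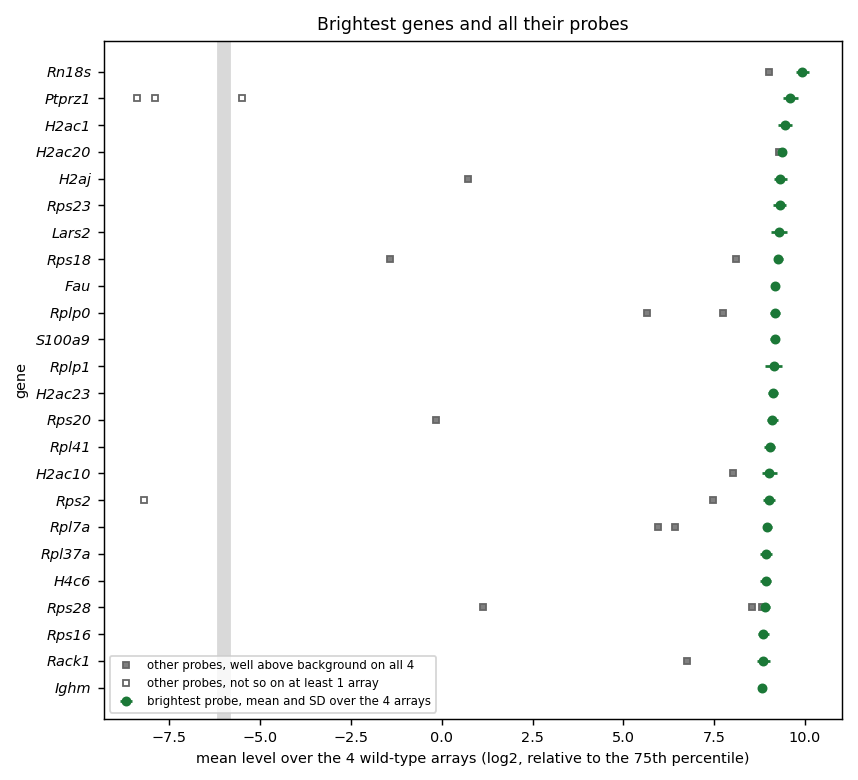
Mean level of 24 of the 25 brightest genes over the 4 wild-type arrays (green, with the SD) and of every other probe of the same genes (grey squares, open where a probe was not well above background on all 4 arrays). The x axis is log2 relative to the 75th percentile, and the grey band is the lowest well above background level. Ptprz1 is the gene whose other 3 probes all lie at or below -5.50.

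The histone probes shared sequence, and 2 of them are shown because the same run of letters appears in genes that the array lists separately. The capitals mark the 44 bases that the H2ac1 and H2ac10 probes have in common.
H2ac1: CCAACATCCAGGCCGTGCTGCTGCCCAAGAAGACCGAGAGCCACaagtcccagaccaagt
H2ac10: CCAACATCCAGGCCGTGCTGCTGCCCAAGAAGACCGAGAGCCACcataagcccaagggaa
Both lie on mm9 chromosome 13 on the plus strand, at chr13:24026659-24026718 and chr13:23626108-23626167. H2ac1 read 9.45 ± 0.21 and H2ac10 read 9.02 ± 0.20 (SD, n = 4 each). The probe of H2aj shared a run of 29 bases with that of H2ac1. The remaining histone genes among the 25 were H2ac20 at 9.38, H2ac23 at 9.11 and H4c6 at 8.92, and signal cannot be assigned to 1 copy of this family.

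The transcription factors that commit a cell to the B lineage were all measured. All 20 of 20 listed factors were well above background on all 4 arrays, with a median level of 3.07. Pou2af1, the coactivator that the knockout mice of the series lack, read 6.40, 6.56, 6.42 and 6.72. Spib, an Ets factor of B cells, read 5.79 ± 0.12, and Bach2, a repressor active in B cell precursors, read 5.65 ± 0.08 (SD, n = 4 each). Ebf1 (2.80 ± 0.12) and Pax5 (-1.61 ± 0.27), the factors that fix B cell identity, had dimmer probes (SD, n = 4 each; both named after their values were seen).

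For the pre-B cell receptor and its signalling chain, all 16 of 16 genes were measured at a median level of 4.49. Besides Ighm, Vpreb3 and Vpreb1, the chain included Blnk, the adaptor below the receptor, at 6.98, 7.14, 7.19 and 7.31. Genes named after their values were seen are the phospholipase Plcg2 at 6.26 ± 0.07, the second surrogate light chain gene Igll1 at 5.85 ± 0.23, Vpreb2 at 4.06 ± 0.26 and Cd79a at 2.26 ± 0.16 (SD, n = 4 each). Igll1 read 5.58 and 5.77 in the female cultures and 6.07 and 6.00 in the male ones, so that, as for Vpreb1, the sexes did not overlap. A second, dimmer Igll1 probe read -0.30 and -0.02 in the female and -0.49 and 0.25 in the male cultures. With that probe the sexes overlapped.

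Promoter windows of 5 of these genes are shown because the genes stand together among the measured members and hold motifs of the factors above. The sequences are from RefSeq, build GRCm38.p6, 5′ to 3′ on the strand of the gene, and the capitals mark 1 motif in each; the Blnk window also holds the E-box CACCTG, left in lower case.
Vpreb3: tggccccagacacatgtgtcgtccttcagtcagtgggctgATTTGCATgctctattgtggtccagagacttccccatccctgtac
Blnk: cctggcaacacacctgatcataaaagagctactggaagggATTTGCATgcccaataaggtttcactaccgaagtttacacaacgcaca
Vpreb1: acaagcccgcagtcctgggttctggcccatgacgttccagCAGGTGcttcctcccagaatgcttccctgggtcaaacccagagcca
Igll1: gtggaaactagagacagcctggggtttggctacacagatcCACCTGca
Cd79a: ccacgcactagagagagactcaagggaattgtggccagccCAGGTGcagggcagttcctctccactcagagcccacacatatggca
They lie at chr10:75948215-75948299 (plus), chr19:40994304-40994391 (minus), chr16:16869298-16869383 (minus), chr16:16863986-16864033 (minus) and chr7:24897303-24897388 (plus). The octamer ATTTGCAT, which Oct factors bind and where Bob1 joins them, ends 37 bases before the start of Vpreb3 and 122 bases before that of Blnk. The E-box CAGGTG or CACCTG, a motif bound by E proteins such as Tcf3, ends 82 bases before Vpreb1, 2 before Igll1 and 148 before Cd79a.

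Within the 250 bases before the start, read on both strands (ATTTGCAT or ATGCAAAT, CAGGTG or CACCTG, which cannot overlap each other), the octamer stood in 490 of 27025 promoters (1.81%) and the E-box in 5252 (19.4%). Of the 11 receptor genes with a promoter in the table, 2 held the octamer and 9 held the E-box. Of 18 commitment factors 0 held the octamer and 3 the E-box, and of 20 neutrophil genes 0 and 8 did. Of 13 immature and mature B genes 0 held the octamer and 6 the E-box, and of 11 megakaryocyte genes 0 and 0 did. Of 26 genes of other organs, 2 held the octamer and 7 the E-box. A match is a description of the letters and shows no binding.

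Genes of each precursor stage were measured together. The multipotent and pre-pro-B list was measured in 13 of 13 genes at a median of 0.77, led by Ly6d at 7.34 ± 0.10, Cd93 at 5.99 ± 0.09 and the surface enzyme Bst1. Ly6d marks lymphoid progenitors that have turned to the B lineage, and Cd93 marks immature B lineage cells. At the other end of the same list, Flt3, a receptor of multipotent progenitors that B cells shut off, read -4.18 ± 0.36 and Kit, the stem cell factor receptor, -0.18 ± 0.19 (SD, n = 4 each; named after their values were seen).

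Pro-B genes were measured in 14 of 14, with a median of 3.72, led by Vpreb1, Cd93 and Igll1. Dntt, the enzyme that adds bases at heavy chain joins, read 5.19 and 5.50 in the female cultures and 5.99 and 5.98 in the male ones. In 9 of these 14 genes both male cultures lay above both female ones, against 36.2% of all 13654 genes, and in 0 the reverse. After quantile normalization the counts were 6 and 2, against 30.6% of all genes with male cultures higher.

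Large pre-B genes, mostly of the cell cycle, were measured in 14 of 15 at a median of 2.86, and the 3 brightest were Birc5 at 6.39 ± 0.09, Mki67 at 6.39 ± 0.07 and Ccnd2 at 4.99 ± 0.12 (SD, n = 4 each). Ccnd3, the cyclin on which pre-B cell division depends, gave 5.76, 5.68 and 5.81 on 3 arrays, and its spot on the array of Bob1 wild-type A carried an outlier flag. Replication and mitosis genes were measured in 30 of 30 at a median of 4.38, led by Mcm6, Pcna and Birc5. Both male cultures lay above both female ones in 11 of 14 large pre-B genes and in 24 of 30 replication and mitosis genes, against the same 36.2%. After quantile normalization they did so in 8 of 14 and 17 of 30, against 30.6%.

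Small pre-B genes were measured in 15 of 15 at a median of 2.39. Spib, Ms4a1, which encodes CD20, and the antiproliferative gene Btg1 led it. Ms4a1 read 4.88, 4.84, 4.83 and 5.27, the last in BL6 wild-type B. Il2ra, which marks pre-B cells at their surface, read -0.44 ± 0.17 (SD, n = 4; named after its value was seen).

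Recombination genes were measured in 16 of 16, with Hmgb2 at 6.74, Hmgb1 at 5.76 and Dntt at 5.66 as the brightest. Rag1 read 2.65 ± 0.11 and Rag2 -3.16 ± 0.06 (SD, n = 4 each; named after their values were seen), and since their probes differ, the 2 levels do not rank the transcripts.

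Genes of later B cells were measured too. All 24 of 24 immature and mature B genes on the array were well above background on all 4, at a median of 2.26, led by Cd52 at 6.79 ± 0.21, the invariant chain Cd74 at 6.58 ± 0.15 and the MHC class II gene H2-Ab1 at 5.23 ± 0.09 (SD, n = 4 each). Myeloid and dendritic cells also express these 3 genes. The mature B cell receptors Fcer2a and Cr2 read -2.04 and -3.81 (named after their values were seen).

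Germinal centre and plasma cell genes were measured in 9 of 10 at a median of -1.63, led by Xbp1 at 2.11, Jchain at 1.06 and Sdc1 at 0.29. Tnfrsf17, the plasma cell receptor BCMA, was on no array well above background.

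The IL-7 pathway was measured in 18 of 20 genes at a median of 2.74. Its brightest members were Mcl1, a survival factor, at 5.40 ± 0.10, Ccnd2, and Crlf2, the partner chain of the IL-7 receptor for the cytokine TSLP, at 4.67 ± 0.10 (SD, n = 4 each). The receptor chain Il7r read 3.0, 2.83, 2.79 and 2.76 (named after its value was seen). Tslp itself was well above background on none of the arrays.

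**Figure D3:**
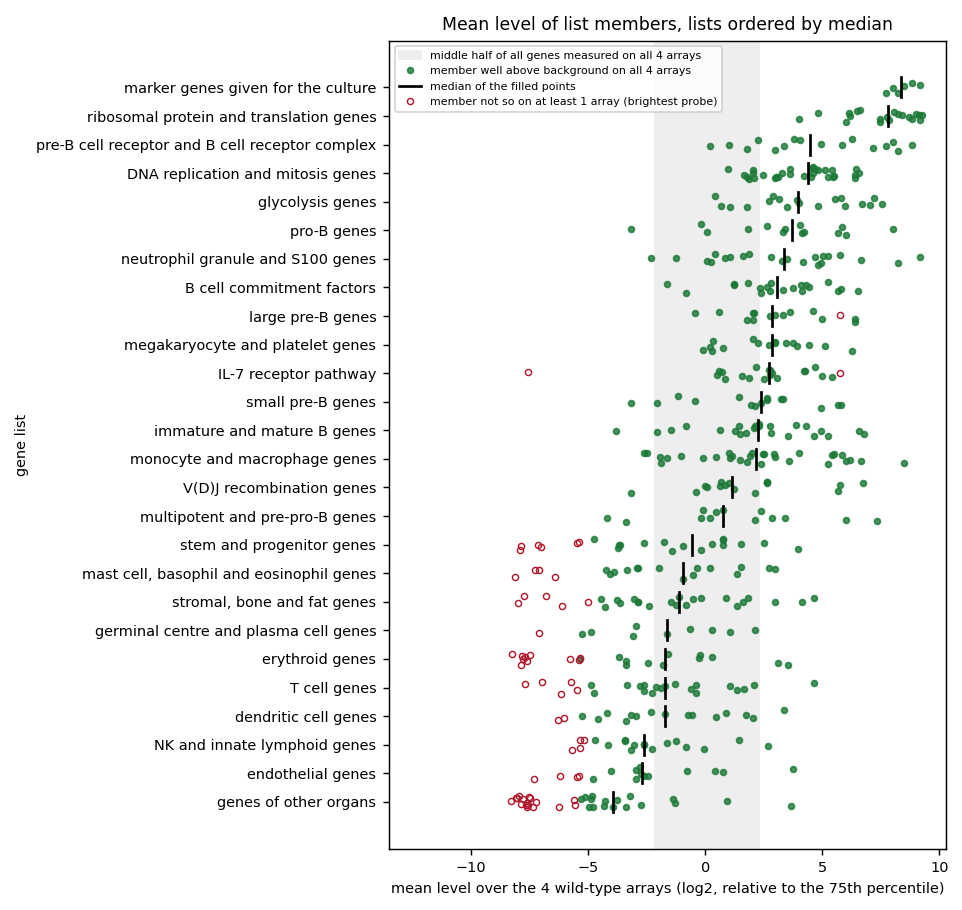
Mean level over the 4 wild-type arrays of each list member (log2, relative to the 75th percentile), with lists ordered by their median (black bar). Filled points were well above background on all 4 arrays and open points were not, and the grey area spans the quartiles of all 13654 genes. The pre-B cell receptor list has a median of 4.49 and the genes of other organs -3.94.

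Beside B cell genes, all neutrophil, monocyte and megakaryocyte list members that were on the array were well above background on all 4, where 64.8% of all genes were. Neutrophil granule and S100 genes were measured in 22 of 22 at a median of 3.37. The brightest after S100a9 and S100a8 was Chil3, a chitinase-like protein of neutrophils and macrophages, at 7.05 and 6.97 in the female cultures and 6.49 and 6.03 in the male ones. Ltf, the granule protein lactoferrin, read 6.19 and 6.23 in the female cultures and 5.52 and 5.04 in the male ones (named after its values were seen).

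Monocyte and macrophage genes were measured in 30 of 30 at a median of 2.19, led by Lyz2, Lyz1 at 6.67 ± 0.27 and Ly6c2 at 6.20 ± 0.56 (SD, n = 4 each). Megakaryocyte and platelet genes were measured in 16 of 16 at a median of 2.85. Pf4, a platelet chemokine, read 6.57 and 6.58 in the female cultures and 5.83 and 6.14 in the male ones, and Ppbp, another, read 5.13 ± 0.55, and the integrin Itgb3 4.41 ± 0.50 (SD, n = 4 each).

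Mast cell, basophil and eosinophil genes were measured in 15 of 19 at a median of -0.93. Prss34, a basophil protease, read 3.73 and 3.93 in the female cultures and 2.01 and 2.28 in the male ones. Prg2, an eosinophil granule protein, read 2.71 ± 0.43, and Hdc, which makes histamine, 1.51 ± 0.65 (SD, n = 4 each). The connective tissue mast cell proteases Tpsab1, Tpsb2, Mcpt4 and Cma1 were well above background on none of the arrays.

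Dendritic cell genes were measured in 15 of 17 at a median of -1.73, led by Bst2 at 3.37, Tcf4 at 2.02 and Clec10a at 1.74, and Cd209a was well above background on none.

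Of the erythroid genes, 12 of 22 (54.5%) were well above background on all 4 arrays, against 64.8% of all genes, at a median of -1.70. The brightest were Tfrc, the transferrin receptor of all dividing cells, at 3.54, Car2 at 3.11 and the globin gene Hbb-bt at 0.34, -0.05, 0.43 and 0.44. On none of the arrays were 7 genes well above background, among them Rhag, Ahsp, which encodes the chaperone of alpha globin, and Epb42.

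T cell genes were measured in 19 of 24 at a median of -1.72. The brightest, Thy1, read 4.49, 4.73, 4.49 and 4.83, and it is made by stromal cells too. Lat, a signalling adaptor of T cells, platelets and mast cells, read 2.10 ± 0.11 and Cd8b1 1.67 ± 0.77 (SD, n = 4 each), and Ctla4 was well above background on none. NK and innate lymphoid genes were measured in 15 of 19 at a median of -2.62. They were led by the chemokine Ccl5 at 3.32 and 3.33 in the female cultures and 2.10 and 2.06 in the male ones, Nkg7 at 1.46 and Klrd1 at -0.07.

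Stem and progenitor genes were measured in 16 of 22 at a median of -0.55, led by Cd48, which most blood cells carry, at 3.98, Ly6a at 2.53 and Mllt3 at 1.51. Mecom, Hoxa10, Fgd5 and Hoxb5, genes of stem cells, were well above background on none of the arrays. Stromal, bone and fat genes were measured in 21 of 26 at a median of -1.11, with Thy1, Acta2 at 4.14 and the phosphatase Alpl at 2.99 brightest. Lepr, the receptor that marks marrow stroma, Il7, the gene of the cytokine added to the medium, and Lum were well above background on none. Endothelial genes were measured in 12 of 16 at a median of -2.69, led by Vwf, which megakaryocytes make as well, at 3.76, Eng at 0.77 and Egfl7 at 0.42, with Flt4 on none.

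Genes named for organs that marrow does not hold were looked at for what else the flag passes. Of 34 such genes, 17 (50%) were well above background on all 4 arrays, at a median of -3.94, and 15 were on none, the first 5 in list order being Alb, Ttr, Ins1, Gcg and Myh6. The brightest were Mbp, the myelin protein gene whose locus also gives transcripts in blood cells, at 3.68, the sperm protamine gene Prm1 at 1.0, 0.61, 0.75 and 1.33, and the heart actin gene Actc1 at -1.28. The flag alone therefore also passed genes named for other organs, mostly at low levels. Their share is not a rate of false detection, as it was not tested which of them the culture expresses. Of this list, limma called Prm1 and Gh lower and Ghrh higher in the Bob1 knockout than in Bob1 wild-type.

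Few features separated the 2 wild-type colonies by the test. Between Bob1 wild-type and BL6 wild-type, limma called 8 of 17276 features (0.0463%) at a Benjamini-Hochberg adjusted p of 0.05, of which 3 (0.0174%) were higher and 5 (0.0289%) lower in Bob1 wild-type. The lists held 0 of the 8, and 375 features (2.17%) had an unadjusted p under 0.05. Only 1 of the 8 was well above background on all 4 arrays. This was Tmem254a, named after its values were seen, at 3.21 and 3.42 in Bob1 wild-type and 0.66 and 0.62 in BL6 wild-type, a log2 difference of 2.68 with an SE of 0.14 and a limma adjusted p of 0.0026. The count depends on single cultures, as it was 34 without Bob1 wild-type A and 22 without BL6 wild-type A.

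Stromal genes ordered the colonies without passing the test. In 14 of 21 stromal genes both Bob1 wild-type cultures lay above both BL6 ones, against 8.25% of all 13654 genes, and in 10 of 30 monocyte and macrophage genes, but limma called 0 members of either list, and none of their members was higher in Bob1 wild-type at an unadjusted p under 0.05; 1 stromal gene was lower at that p. The list mean was -0.49 and -0.22 in Bob1 wild-type and -1.05 and -1.13 in BL6 wild-type. Col3a1, a collagen of fibroblasts named after its values were seen, read -1.32 and -1.13 against -3.96 and -3.16.

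Several lists, most of them of non-B cells, were ordered by sex in the same way in both colonies. Among all 13654 genes, both female cultures lay above both male ones in 21.7% and both male above both female in 36.2%. Both female cultures were higher in 20 of 22 neutrophil genes, 15 of 16 megakaryocyte genes, 14 of 15 mast cell, basophil and eosinophil genes, 15 of 19 T cell genes, 13 of 15 NK genes, 11 of 15 dendritic cell genes and 12 of 16 stem cell genes. Immature and mature B genes had this order in 11 of 24, and in 15 of 24 after quantile normalization. Of the other non-B lists, monocyte genes had it in 15 of 30 and the reverse in 3, erythroid genes in 5 and 4 of 12, endothelial genes in 4 and 4 of 12, and stromal genes in 3 and 3 of 21. The reverse order was seen in 14 of 18 glycolysis and 13 of 20 ribosomal protein genes, beside the pro-B, large pre-B and replication genes above. The glycolysis mean was 3.94 and 3.97 in the female cultures, 4.06 in Bob1 wild-type B and 4.62 in BL6 wild-type B. Most of that gap thus lay in 1 male culture. After quantile normalization both male cultures were higher in 11 of 18 glycolysis and 9 of 20 ribosomal protein genes, against 30.6% of all genes.

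The list mean of mast cell, basophil and eosinophil genes was -0.66 and -0.46 in the female and -1.73 and -1.51 in the male cultures. NK genes averaged -1.48 and -1.40 against -2.50 and -2.37, and megakaryocyte genes 2.97 and 3.04 against 2.07 and 2.27. Neutrophil genes averaged 3.65 and 3.48 in the female and 2.83 and 2.91 in the male cultures. For these 4 lists the sexes did not overlap, and the order was the same in each wild-type colony. It was turned in the Bob1 knockout for neutrophil genes (2.31 in the female and 2.66 in the male culture) and megakaryocyte genes (1.62 and 1.95). Mast cell genes read -1.95 and -2.02 there and NK genes -2.68 and -3.39.

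Where the difference was small, its direction rested on the scaling. The median of female minus male was 1.13 for mast cell, 1.06 for NK, 0.89 for megakaryocyte, 0.81 for T cell and 0.74 for neutrophil genes, and it stayed positive for these 5 under quantile normalization (0.80 to 1.17), normexp (0.57 to 0.85) and the deposited value table (0.08 to 0.80). For the pre-B cell receptor list it was -0.09, and 0.04 after quantile normalization, so that no order of the sexes can be given for that list as a whole. The median over all genes was -0.06.

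**Figure D4:**
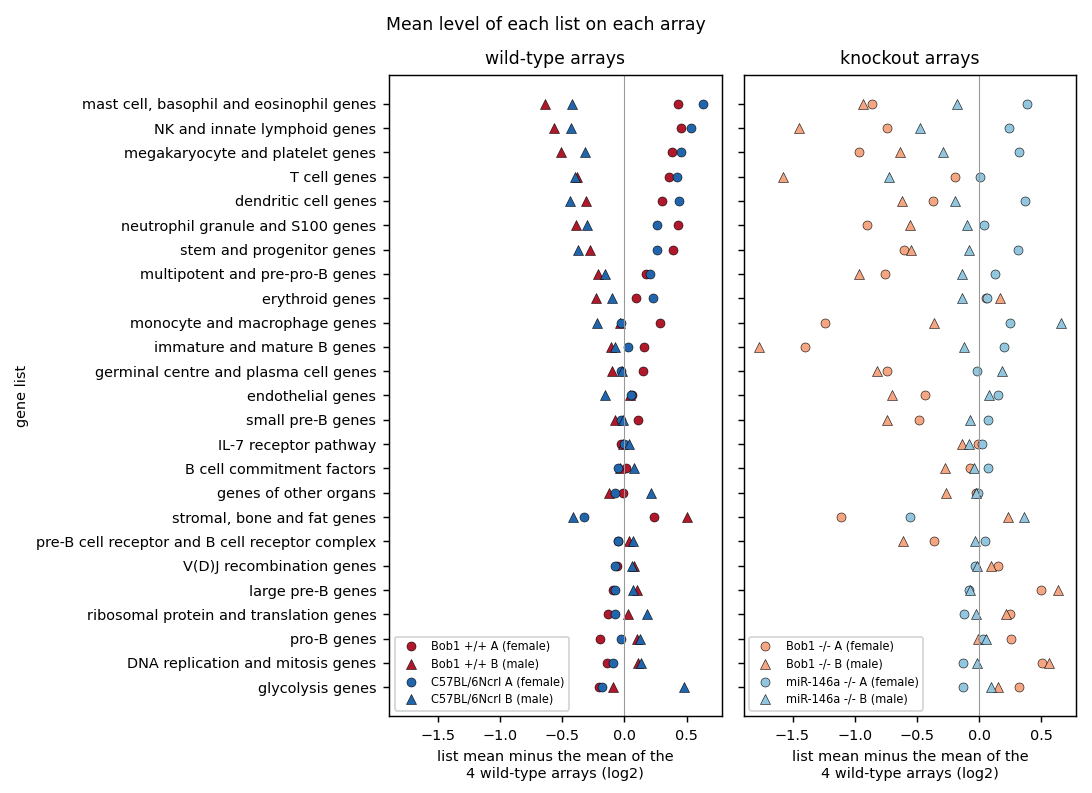
Mean level of each list on each array, minus its mean over the 4 wild-type arrays (log2), for the wild-type arrays (left) and the knockout arrays (right). Circles are female and triangles male cultures. On the left, circles and triangles separate for mast cell, NK, megakaryocyte, T cell, dendritic cell, neutrophil and stem cell genes, and the 2 colonies separate for stromal genes.

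A fit over all 8 arrays with sex and group as terms called 7 of 17276 features (0.0405%), all lower in male cultures. A share of 7.57% was lower in males and 6.06% higher at an unadjusted p under 0.05. Among the list members, Bcl11b, a T lineage factor, had a log2 difference (male minus female) of -1.56 with an SE of 0.10 and a limma adjusted p of 0.039, and Gzmb, a protease of cytotoxic cells, had -1.67 with an SE of 0.10 and a limma adjusted p of 0.039. Bcl11b read -2.17 and -1.89 in the female wild-type cultures and -3.49 and -3.60 in the male ones, and Gzmb -0.97 and -0.70 against -2.55 and -2.37. The other 5, named after their values were seen, were Rgs16, Trav3n-3 and 3 probes without a symbol, 2 of which the file describes as T cell receptor sequences.

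No further member of the T cell and NK lists passed the threshold. At an unadjusted p under 0.05, 14 of 19 T cell genes, 10 of 17 NK genes and 11 of 15 mast cell, basophil and eosinophil genes were lower in male cultures, against 7.57% of all features. Their median log2 differences were -1.0, -0.81 and -0.66, where the median of all features was 0.02. At the same p, 8 of 17 stem cell, 6 of 16 megakaryocyte and 6 of 15 dendritic cell genes were lower in male cultures. Only 2 of 22 neutrophil genes were, a share close to that of all features. The call of Bcl11b and Gzmb was lost with slide as a block, after quantile normalization, in the deposited value table, without the filter on dim probes and when any single culture was left out, and that of Bcl11b also with the median over probes, with limma adjusted p up to 0.28 for both. The median log2 difference of the T cell list stayed negative in all 17 alternatives, from -1.04 to -0.13, the smallest in the deposited value table, whose scale is compressed. With slide as a block the median differences were -1.0 for T cell and -0.81 for NK genes, unchanged from the main fit.

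Glycolysis genes were measured in 18 of 18 at a median of 3.97, led by Aldoa, Ldha and Gapdh, and ribosomal protein and translation genes in 20 of 20 at 7.81. BL6 wild-type B stood apart from the other 3 in the glycolysis genes. It was the highest array in 17 of 18 glycolysis genes and in 16 of 20 ribosomal protein genes, against 39.3% of all genes. The glycolysis mean was 4.62 there and 3.94, 4.06 and 3.97 in Bob1 wild-type A and B and BL6 wild-type A. Aldoa, the aldolase of glycolysis, read 8.06 there and 7.31, 7.38 and 7.37 elsewhere, and Ldha, which makes lactate, read 7.84 against 6.87, 7.25 and 6.79. This array was also the only wild-type one on the second slide. The other arrays of that slide had glycolysis means of 4.47 and 4.30 (Bob1 knockout) and 4.01 (miR-146a knockout A), and the part of the slide in this result was not tested.

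Few genes varied strongly among the 4 cultures. The range exceeded 1 in 939 genes (6.88%) and 2 in 116 (0.850%). The 10 widest ranges belonged to dim probes of genes outside the lists, save 1. Syt10, a synaptotagmin, read -4.40 and -5.43 in Bob1 wild-type and 0.88 and 2.28 in BL6 wild-type, a range of 7.71. Grn, the gene of progranulin, read 3.51 and 1.42 against 7.55 and 8.29 with 1 probe, while its other probe read 4.14 ± 0.25 (SD, n = 4), so the probes of this gene disagree.

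Lrmda (range 4.70) and Plac9a (4.64) were split by colony as well, in the opposite direction. In the remaining 6, 1 array stood above the others. They included Klhdc7a (5.24) and Plb1 (3.80) in BL6 wild-type B, Slc16a11 (3.90) and Grik4 (4.60) in Bob1 wild-type B, and Cdh6 (3.97) in BL6 wild-type A. None of the 10 passed the colony test, the lowest limma adjusted p being 0.11 for Lrmda.

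Set against the Bob1 knockout, the wild-type cultures differed in many later B cell genes. Pou2af1 read 2.71 and 2.82 in the Bob1 knockout and 6.40 and 6.56 in its wild-type. Between Bob1 knockout and Bob1 wild-type, limma called 1188 of 17276 features (6.88%), 3.53% higher and 3.35% lower. In the immature and mature B list 14 of 24 fell and 1 rose, with a median log2 difference of -1.64 against 0.12 for all features. Of the 6 markers, Vpreb3 fell by 2.56 on the log2 scale (SE 0.20, limma adjusted p 0.0018) and Cd79b by 1.39 (SE 0.18, limma adjusted p 0.0099). Ighm, Vpreb1, S100a9 and Lyz2 did not pass the test, with log2 differences of -0.17, 0.53, 0.01 and -0.44 and limma adjusted p of 0.43, 0.15, 0.96 and 0.33.

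The list members with the largest falls were Ly6d (7.43 and 7.32 in wild-type, 1.85 and 0.78 in the knockout, log2 difference -6.05), Prm1 (-5.95) and Ms4a1 (-5.40). Those with the largest rises were Ghrh, a hypothalamic hormone gene (3.43), the red cell antigen gene Rhd (2.53) and Car2 (1.34). Over the alternatives, Ly6d ran from -6.59 to -5.52, Prm1 from -6.30 to -1.27 and Ms4a1 from -5.94 to -4.33. Ghrh ran from 0.94 to 3.58, Rhd from 0.45 to 2.68 and Car2 from 1.09 to 1.58. The 75th percentile was 493.74 and 622.02 signal units in Bob1 knockout A and B, against 761.76 and 782.46 in Bob1 wild-type. The lowest level well above background was -5.32 and -5.67, against -6.17 and -6.16. The part of depth in these differences was not tested. Both Bob1 wild-type arrays were on the first slide and both knockout arrays on the second, so slide and genotype cannot be told apart in this pair. Without Bob1 wild-type A the count of 1188 became 353, without Bob1 wild-type B 468, without Bob1 knockout A 531, without Bob1 knockout B 592, and without either miR-146a knockout culture 631. With slide as a block estimated over all 8 arrays, 128 features were called, 5 of the 24 later B cell genes were called lower, Vpreb3 kept its call (limma adjusted p 0.040), and Cd79b and Car2 did not (limma adjusted p 0.073 and 0.25).

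The miR-146a knockout, compared with BL6 wild-type, differed in 18 features by limma (0.104%), and 493 (2.85%) had an unadjusted p under 0.05. The lists held 0 of the 18, and the log2 differences of the 6 markers lay between -0.14 and -0.02. Without miR-146a knockout A the count was 8, and 11 without miR-146a knockout B or either Bob1 wild-type culture.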

How the data were processed

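Total RNA of 8 cultures was labelled with Cy3 after oligo-dT priming and put on one-colour 4x44K mouse arrays of Agilent, per the labels' protocols. Per the file headers, Feature Extraction 10.5.1.1 made the deposited intensity used here, its processed signal, with the background subtracted and spatial trends removed, and probe positions are on mm9. The well above background, saturation and outlier flags are deposited per spot in other columns. The authors' deposited value table holds values on what appears to be a log2 scale, with column medians of 9.588 to 9.589 and a slope of 0.42 to 0.46 against the array levels of probes well above background; its exact scale and centring stay unknown and it served as an alternative only. The submitters' processing notes name limma.

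Control spots and outlier spots (71 to 156 an array) were left out, and spots of a probe were averaged. Of 41174 probes, 27584 were named by accession and 635 by synonym in RefSeq, 6611 kept the file's symbol, and 6344 had none. A feature was tested if well above background on both arrays of a group, which left 17276. limma 3.58.1 (R 4.3.3) fitted 4 group means over 8 arrays with 4 residual degrees of freedom and Benjamini-Hochberg adjustment over all features; the sex contrast added sex. SE is limma's moderated standard error. The fit was also run on simulated data whose noise had the same spread in every feature and no background floor. That run checks the calculation and does not give an error rate for these arrays. Array number limits the precision.

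The markers, members and all 26 lists (451 genes on the array, 49 in more than 1 list) were chosen with earlier results of these data known. Named genes were the 6 markers, the 25 brightest, the 3 brightest of each list and members well above background on none of the arrays (beyond 5, a count and the first 5), the 10 widest ranges, and the 3 largest called changes of list members in each direction; others are marked, and a few genes are not reported here. Alternatives were other scalings, filters, probe rules, blocks and leaving out each culture. In the labels, replicate letters went with sex and were tied to no litter, and anything else a letter shared cannot be told apart from sex. Same-letter deviations correlated at 0.07 to 0.38 between groups, and the letters were not used as pairs.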

Additional observations from a re-analysis of the deposited data

Results flagged for a closer look

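Of 98 named genes and 26 list means, 6 genes and 2 lists had 1 wild-type culture far from the other 3, by Dixon's ratio; chance alone would put about 1 in 20 there. In BL6 wild-type B, Rps18 read 9.45 (9.19 to 9.21 in the others), Ms4a1 5.27 (4.83 to 4.88), Aldoa 8.06 (7.31 to 7.38), Klhdc7a -0.60 (-5.84 to -5.70) and Plb1 -1.21 (-5.01 to -4.49). The mean of glycolysis genes was 4.62 in that culture (3.94 to 4.06 in the others) and that of endothelial genes -1.92 (-1.72 to -1.70). In Bob1 wild-type B, Slc16a11 read -1.04 (-4.95 to -4.81). Klhdc7a, Plb1 and Slc16a11 were among the tested genes for their wide range over these 4 arrays, so that for them an outlying array restates how they were chosen. BL6 wild-type B was the only wild-type array on the second slide; the part of the slide was not tested.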

How the results depend on the processing

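The 13654 genes well above background on all 4 arrays became 14053 with 3 arrays sufficing, 11555 with every probe required, 12311 at 3 times the lowest passing signal and 13674 to 13854 without 1 culture. Of the 25 brightest genes, 23 stayed with normexp, 23 in the deposited table, 17 with the median over probes and 24 to 25 without 1 culture. Levels of named genes moved by more than 1 SD over the cultures in 90 of 100 with the 75th percentile taken over detected probes, 38 with normexp, 37 with the median over probes, and none after quantile normalization or without 1 culture. The colony count of 8 became 2 in the deposited table, 1 with probes well above background on all 8 arrays, and 7 to 34 without 1 culture. The Bob1 count of 1188 became 557 without a filter on dim probes, 3383 with normexp (2547 higher and 836 lower, where the main split was 610 and 578), 128 with slide as a block and 353 to 833 without 1 culture; with the 75th percentile taken over detected probes the split was 446 and 633. The miR-146a count of 18 became 1 in the deposited table, 9 without the filter, 6 with all 8 arrays required and 8 to 24 without 1 culture. The sex count of 7 became 0 in the deposited table, after quantile normalization and with slide as a block, 59 with the detection filter applied by sex (chosen after seeing the data), 176 with normexp and 57 with all 8 arrays required. It was 0 without any 1 culture, with 1233 to 2885 features at an unadjusted p under 0.05, and 6 without the filter, none of them among the 7. With replicate letter as a block, the pairing check above not being met, the colony count was 8, the Bob1 count 1843 and the miR-146a count 14; the sex contrast has no such fit because letter is sex. The cause of these shifts was not tested. Single called genes were followed through the alternatives for 12 genes of the Bob1 contrast, 8 of the colony contrast and 7 of the sex contrast. None of these reversed its sign where it was tested, and the signs of the other called features are not given here. Some list medians did reverse. Over the alternatives, male minus female ran from -0.08 to 0.03 for the pre-B cell receptor list, -0.11 to 0.02 for the 6 markers and -0.06 to 0.32 for monocyte genes. A lone array left in a group was assumed to vary like the other groups.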
